A study of Homo sapiens with 36 samples.

Results

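The regulatory genes described here are the 10 listed members of the AP-1 and immediate early factors, the FOS and JUN families with EGR1, EGR3 and IER2. FOS, FOSB, FOSL1, FOSL2, JUN, JUNB and JUND encode the subunits of AP-1. The 10 genes were taken by name from the count table, which lists 26475 gene symbols. AP-1 is a dimer of basic leucine zipper proteins. FOS family proteins bind DNA only together with a partner, commonly a JUN protein, whereas JUN proteins also pair with each other. FOS, FOSB, JUN, JUNB, EGR1, EGR3 and IER2 are immediate early genes, transcribed within minutes of a growth factor or stress signal without new protein synthesis, and FOSL1 and FOSL2 follow more slowly through MAP kinase signalling and AP-1 itself. In epithelial cancers AP-1 is known for its part in proliferation, invasion and the response to serum.

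Poly-A selected RNA of 36 libraries was sequenced in 4 experiments of 9 libraries, each with 2 construct groups and 1 control group of 3 libraries, called biological replicates by the submitters. The labels do not say whether replicates came from separate transductions or cultures, so the p values measure the spread between these libraries. All cells were established human cancer lines grown in DMEM with serum and antibiotics, with no serum starvation or added stimulus named. They were the pancreatic line PANC-1, the basal-like breast line MDA-MB-468 and the colorectal line WiDr. In each line, cells carrying the pGIPZ hairpin 1 or hairpin 2 were set against cells with the non-silencing pGIPZ-NS hairpin. In a separate WiDr experiment, cells with sgRNA 1 or sgRNA 2 were set against cells with the non-targeting guide NT-1. All hairpins and guides apart from the controls address a single gene. Whether a group was a clone or a pool of transduced cells is not given in the sources used here. In PANC-1 the second construct group is called the libraries labelled hairpin 2, because a check of the labels left that label in doubt. For 4 of the 6 targeting guide libraries the title and the genotype field name different guides, and guide results follow the titles.

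Library totals ran from 28371144 to 49237359 counts. Every library was kept as a replicate. Counts of replicates differed by more than sampling noise, with a chi-square per degree of freedom between 3.39 and 177. This does not show whether they came from separate cultures, since libraries of the same RNA can also differ by more than sampling noise. MDA-MB-468 controls had the basal keratin KRT5 at 1570 CPM (counts scaled to library size), and the WiDr controls had the intestinal genes VIL1 at 54.8 and 69.2 CPM, KRT20 at 721 and 266 CPM and LGALS4 at 430 and 303 CPM in the hairpin and guide controls. CDX2 (2.96 and 1.58 CPM), CDX1 (0.796 and 1.21 CPM) and CDH17 (0.470 and 0.227 CPM) of the same list were low there. PANC-1 controls had KRT8 at 5330 and KRT19 at 2200 CPM, but the ductal genes KRT7 and S100P only at 7.59 and 0.874 CPM, with CDX2 at 10.8 CPM. Of the leukocyte genes, PTPRC and CD3E were at most at 0.0466 CPM in the control groups, and CD14 was at 18.8 CPM in MDA-MB-468 controls and 1.67 to 1.92 CPM in the others. In bulk RNA, fewer cells of a kind and less RNA per cell cannot be told apart, in every result that follows.

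Coordinates are those of hg38 with GENCODE 29, and lengths are of the longest transcript. FOS lies on chromosome 14 (75278774 to 75282230, plus strand, 2158 bases in 4 exons) and EGR1 on chromosome 5 (138465490 to 138469315, plus strand, 3138 bases in 2 exons). JUN (chromosome 1, 58780788 to 58784327, minus strand, 3540 bases), JUNB (chromosome 19, 12791496 to 12793315, plus strand, 1820 bases) and JUND (chromosome 19, 18279760 to 18281622, minus strand, 1863 bases) are genes of 1 exon. FOSB and IER2 are also on chromosome 19 (45467995 to 45475179 and 13150415 to 13154908, both on the plus strand). FOSL1 is on chromosome 11 (65892049 to 65900573, minus strand, 1669 bases) and FOSL2 on chromosome 2 (28392448 to 28417312, plus strand, 6708 bases). JUNB overlaps HOOK2, and FOSB overlaps ERCC1, each on the other strand. The strand setting of the authors' counting is not given in the sources used here. How reads from the bases shared by each pair were assigned is therefore not known. Overlap was judged over whole gene spans and not over exons. FOSL2 (FLJ31356 and AC104695.3), IER2 (AC011446.2) and EGR3 (AC055854.1) also overlap other annotated genes.

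The promoters of 4 members with large changes below, chosen after their values were seen, are shown, the 250 bases before the RefSeq start on GRCh38.p14, read 5′ to 3′ on the strand of the gene. RefSeq windows matched 8 of the 10 members, all but FOSL1 and EGR3. The windows are chr5:138465229-138465478 (plus strand) for EGR1, chr14:75278578-75278827 (plus strand) for FOS, chr1:58784048-58784297 (minus strand) for JUN and chr19:12791236-12791485 (plus strand) for JUNB. Capitals mark a CArG box, the serum response factor motif, a match to TGACNTCA, the AP-1 and ATF type octamer, or a match to GCGNGGGCG, the EGR motif.
EGR1: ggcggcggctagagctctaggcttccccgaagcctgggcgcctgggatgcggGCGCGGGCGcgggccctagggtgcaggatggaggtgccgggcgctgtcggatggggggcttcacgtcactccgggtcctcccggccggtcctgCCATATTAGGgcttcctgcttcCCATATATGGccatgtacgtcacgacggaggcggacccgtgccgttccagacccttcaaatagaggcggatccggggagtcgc
FOS: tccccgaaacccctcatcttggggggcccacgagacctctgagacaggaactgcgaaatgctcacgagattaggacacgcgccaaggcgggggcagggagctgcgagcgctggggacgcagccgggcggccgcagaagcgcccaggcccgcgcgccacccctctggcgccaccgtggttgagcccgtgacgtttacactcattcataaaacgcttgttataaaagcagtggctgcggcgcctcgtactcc
JUN: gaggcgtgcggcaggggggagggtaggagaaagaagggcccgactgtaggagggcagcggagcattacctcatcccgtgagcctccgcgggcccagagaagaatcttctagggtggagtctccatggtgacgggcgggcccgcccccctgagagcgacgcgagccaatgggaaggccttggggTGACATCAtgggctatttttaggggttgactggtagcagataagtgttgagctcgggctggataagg
JUNB: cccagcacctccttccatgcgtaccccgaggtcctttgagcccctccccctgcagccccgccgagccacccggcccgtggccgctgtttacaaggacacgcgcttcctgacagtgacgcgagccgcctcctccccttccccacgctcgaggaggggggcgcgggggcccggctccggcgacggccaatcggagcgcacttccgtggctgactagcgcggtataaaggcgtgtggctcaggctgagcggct
The EGR1 window held 2 CArG boxes, at -105 to -96 and -83 to -74 from the start, and a GCGNGGGCG match at -198 to -190. It was the only one of the 8 windows with either motif, and bases farther upstream were not searched. CArG boxes were present in 1.16% of all 35116 RefSeq windows of this length and GCGNGGGCG in 8.41%. JUN had TGACATCA at -67 to -60 and JUND had TGACGTCA, the cAMP response element and a subset of TGACNTCA, at -200 to -193, and TGACNTCA was present in 6.87% of all windows. None of the 8 windows held TGANTCA, the AP-1 heptamer, present in 6.57% of all windows. The TATA box letters TATAAA were found in FOS, FOSB and JUNB, 3 of 8 windows, against 10.7% of all windows. Both strands were searched, and a match is a description of these letters and not a bound site.

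In control cells the lines held different sets of AP-1 subunits. FOS, FOSB, JUN, JUND and EGR1 were highest in the WiDr guide controls and lowest in the PANC-1 controls, whereas FOSL1 had the opposite extreme in PANC-1. FOS averaged 214 ± 7.17 CPM in the WiDr guide controls, 49.4 ± 0.575 in the WiDr hairpin controls, 4.06 ± 0.635 in MDA-MB-468 controls and 0.436 ± 0.0728 in PANC-1 controls (SD, n = 3 each), on a scale common to all 36 libraries. No control library of one group overlapped another in this gene, and the log2 differences were 2.12 for WiDr guide over WiDr hairpin controls, 3.60 for WiDr hairpin over MDA-MB-468 controls and -3.20 for PANC-1 over MDA-MB-468 controls. EGR1, a zinc finger factor induced by serum through SRF, was at 182 ± 3.06, 77.7 ± 3.74, 37.2 ± 2.79 and 1.34 ± 0.0617 CPM in the same order. JUN, the main partner of FOS, was at 314 ± 6.71, 148 ± 9.61, 42.3 ± 1.07 and 35.4 ± 1.70 CPM, again in that order, with the smallest step between MDA-MB-468 and PANC-1 (PANC-1 over MDA-MB-468, log2 difference -0.26, SE 0.0720, adjusted p = 0.00214, edgeR quasi-likelihood test with Benjamini-Hochberg adjustment).

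FOSL1, a FOS family member without the transactivation domain of FOS, averaged 189 ± 8.92 CPM in PANC-1 controls, 51.1 ± 2.72 in WiDr hairpin controls, 37.7 ± 2.75 in WiDr guide controls and 16.7 ± 1.77 in MDA-MB-468 controls. Each neighbouring pair differed by the same test, PANC-1 over MDA-MB-468 controls by 3.50 (SE 0.0869) on the log2 scale. IER2, a nuclear immediate early protein, was instead highest in MDA-MB-468 (162 ± 32.3 CPM), with 71.6 and 69.8 CPM in the WiDr hairpin and guide controls, which did not differ beyond their spread (guide over hairpin, log2 difference -0.04, 95% interval -0.26 to 0.19), and 39.0 CPM in PANC-1. JUNB, a JUN protein that often acts as the weaker activator, was highest in WiDr hairpin controls (130 ± 9.89 CPM), and the WiDr guide (76.3 ± 4.39) and MDA-MB-468 (69.5 ± 11.1) controls did not differ beyond their spread (adjusted p = 0.323). FOSL2 was at 41.2, 40.3 and 35.3 CPM in WiDr hairpin, WiDr guide and MDA-MB-468 controls, which did not differ beyond their spread, and at 18.1 CPM in PANC-1, lower than each. EGR3 was at 1.05, 0.953 and 1.12 CPM in the WiDr hairpin, WiDr guide and MDA-MB-468 controls, which did not differ beyond their spread, and at 0.0683 CPM in PANC-1.

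The 2 WiDr controls differ in vector and experiment and were apart by more than their replicates in 7 of 10 members. FOS, FOSB, JUN, JUND and EGR1 were higher in the guide controls and FOSL1 and JUNB lower, while 19% of all 17171 genes tested in this fit were higher and 15.7% lower. FOSB, a FOS family gene with a truncated splice form, differed most of the 10, with 199 ± 4.56 CPM in guide controls and 20.5 ± 0.466 CPM in hairpin controls (log2 difference 3.27, SE 0.111). Of all genes 75.9% passed between PANC-1 and MDA-MB-468 controls, 76.9% and 76.5% between WiDr hairpin or guide and MDA-MB-468 controls, and 77.6% and 77.5% between WiDr hairpin or guide and PANC-1 controls, so a difference between lines is the common case, and line, culture and experiment cannot be told apart.

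**Figure D1:**
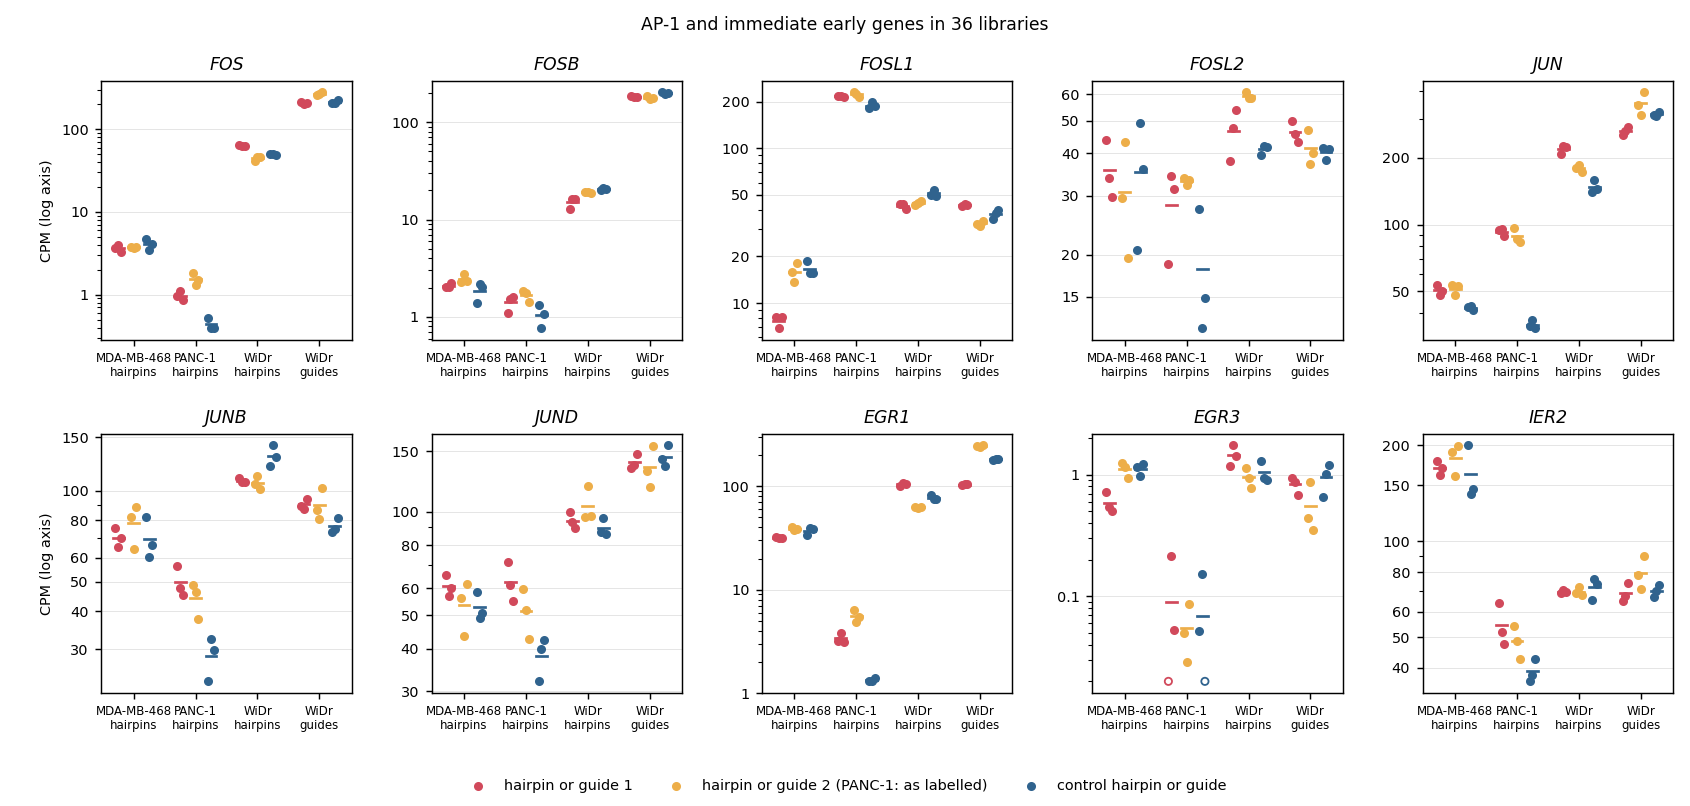
Level of each of the 10 genes (CPM on a scale common to all 36 libraries, log axis) in the 12 groups, with 1 point per library and a bar at the mean of 3; open circles at the bottom are libraries with no count of EGR3. FOSL1 stands highest in PANC-1, where FOS and EGR1 are lowest, and FOS, FOSB and EGR1 stand highest in the WiDr guide experiment.

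Per kilobase of transcript, the FOS family of PANC-1 controls was nearly all FOSL1, at 113 CPM per kb against 0.202 CPM per kb for FOS. FOSL1 made up 96.3% of FOS family reads per kb with hairpin 1, 95.6% in the libraries labelled hairpin 2 and 97.2% in the controls. The WiDr guide experiment had the other composition, with FOS at 54.3% with guide 1, 63.0% with guide 2 and 55.0% in controls. In MDA-MB-468 the FOSL1 share was 38.0% ± 4.2 with hairpin 1, 57.9% ± 9.7 with hairpin 2 and 56.9% ± 8.68 in controls, and FOSL2 took 43.5%, 27.6% and 29.5% in the same groups. Among JUN family reads per kb, JUN in PANC-1 was 30.2% ± 2.17 with hairpin 1, and it was 32.7% ± 2.17 in the libraries labelled hairpin 2, against 21.8% ± 2.49 in controls. In the WiDr hairpin experiment JUN was 36.2% and 30.7% with hairpins 1 and 2 and 25.8% in controls, and JUNB 34.4% and 35.4% against 44.3%.

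**Figure D2:**
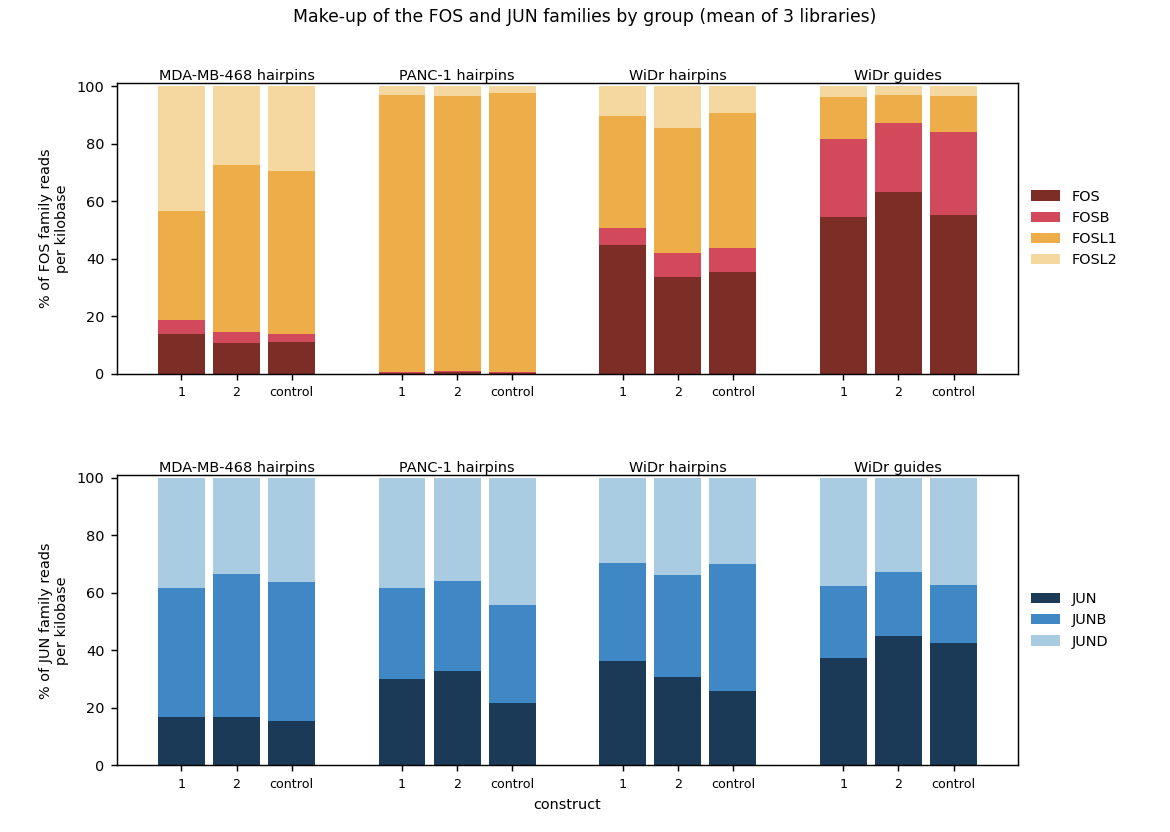
Percent of FOS family (upper) and JUN family (lower) reads per kb of transcript taken by each gene, mean of 3 libraries in each of the 12 groups. FOSL1 takes 95.6% to 97.2% of the FOS family in the PANC-1 groups, and FOS takes the largest share in the WiDr guide experiment.

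In PANC-1, the line with the lowest FOS and EGR1, these genes and JUN were higher in both construct groups. FOS had 0.952, 1.09 and 0.849 CPM with hairpin 1 and 1.78, 1.29 and 1.49 CPM in the libraries labelled hairpin 2, against 0.515, 0.392 and 0.387 CPM in the controls. Every construct library was above every control library, though the gene is close to silent, with 33 to 41, 45 to 73 and 13 to 20 counts in the 3 groups. The log2 fold changes over the control were 1.14 (SE 0.234, adjusted p = 0.0059) and 1.81 (SE 0.228, adjusted p = 0.000408, edgeR quasi-likelihood test with Benjamini-Hochberg adjustment, as for all adjusted p below). EGR1 had 3.19, 3.74 and 3.09 CPM with hairpin 1 and 6.22, 4.80 and 5.35 CPM in the libraries labelled hairpin 2, against 1.29, 1.30 and 1.40 CPM in the controls. The 3 groups did not overlap, with log2 fold changes of 1.33 (SE 0.150, adjusted p = 0.000224) and 2.04 (SE 0.148, adjusted p = 1.79e-05).

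JUN rose by nearly the same amount in both PANC-1 construct groups. It had 93.6, 94.5 and 87.1 CPM with hairpin 1 and 94.4, 84.4 and 82.9 CPM in the libraries labelled hairpin 2, against 34.5, 36.8 and 33.7 CPM in controls. The lowest construct library was far above the highest control, and the log2 fold changes were 1.39 (SE 0.0859, adjusted p = 7.85e-06) and 1.32 (SE 0.0858, adjusted p = 9.21e-06). JUNB had 56.2, 47.0 and 44.6 CPM and 47.9, 45.3 and 37.3 CPM, against 23.3, 31.9 and 29.5 CPM in controls, again without overlap (0.80, SE 0.149, adjusted p = 0.00364, and 0.62, SE 0.149, adjusted p = 0.0117). Its second call is lost without the library labelled hairpin 2 replicate 1 (0.55, adjusted p = 0.053). HOOK2, which shares the JUNB locus, rose as well, by 0.89 and 0.80 on the log2 scale to means of 25.4 and 24.0 CPM, against 13.7 CPM in controls. What part of the JUNB change the shared reads hold was not tested.

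JUND, the JUN protein that most cells keep at a steady level, had 71.1, 60.4 and 54.1 CPM with hairpin 1 and 58.6, 50.9 and 42.1 CPM in the libraries labelled hairpin 2, against 31.8, 39.4 and 41.9 CPM in controls. Construct libraries were all above the controls, though the lowest by 42.1 against 41.9 CPM, and of both comparisons hairpin 1 passed (0.71, SE 0.157, adjusted p = 0.0085, and 0.42, adjusted p = 0.065). IER2 likewise passed with hairpin 1 alone (0.48, adjusted p = 0.0244, and 0.31, adjusted p = 0.108), and 3 of the 9 fits that leave out 1 library lose the call. FOSL1, the abundant FOS family member, had 217, 217 and 210 CPM with hairpin 1 and 226, 220 and 213 CPM in the libraries labelled hairpin 2, against 179, 196 and 185 CPM in controls. The gap is narrow (0.20, adjusted p = 0.0659, and 0.24, adjusted p = 0.0335), and the call is lost in 5 of the 9 fits without 1 library. FOSB (0.41 and 0.66) and FOSL2 (0.63 and 0.86) did not pass. EGR3 had 0 to 8 counts in each library and was not tested.

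Of the 9 members tested in PANC-1, 6 were higher for hairpin 1 and 5 in the libraries labelled hairpin 2, and none was lower. Among all genes 15.9% were higher and 14.5% lower with hairpin 1, and 16.2% higher and 17.5% lower in the libraries labelled hairpin 2. Beside the count of 0 lower members, no member was lower at an unadjusted p under 0.05 or by DESeq2 in either comparison. FOS, JUN, JUNB and EGR1, 4 of 9, were higher in both, as were 12.4% of all genes, and both comparisons share the 3 control libraries. The median log2 fold change of the members was 0.71 and 0.66, against -0.03 and -0.02 over all genes. Ribosomal RNA genes took 0.838% to 2.6% and 1.22% to 1.8% of counts in the construct groups and 4.61% to 9.6% in the controls, and leaving those genes out kept every PANC-1 member on its side of the threshold. The 4 fibroblast markers summed to 39.3 to 42.6 CPM with hairpin 1, 14.5 to 17.9 CPM in the libraries labelled hairpin 2 and 9.72 to 19.6 CPM in controls. Only COL1A1 of the 4 reached 1 CPM, COL1A2, DCN and LUM averaging 0.00867, 0.0287 and 0.128 CPM in controls. The 6 duct-type epithelial markers summed to 6110 to 7700 CPM with hairpin 1, 5360 to 5840 CPM in the libraries labelled hairpin 2 and 7930 to 11200 CPM in controls, both construct groups below every control. The 4 leukocyte markers summed to 2.07 to 3.11, 3.49 to 4.22 and 1.40 to 2.35 CPM in the same order, and the part of these lists in the results was not tested.

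The libraries labelled hairpin 2 were set directly against hairpin 1 in PANC-1. EGR1 was 0.71 higher in the libraries labelled hairpin 2 on the log2 scale (SE 0.137, 95% interval 0.44 to 0.98, adjusted p = 0.102) and FOS 0.66 (adjusted p = 0.335), neither of which passed. None of the 9 members passed, 2 did at an unadjusted p under 0.05 and 1 by DESeq2, and 0.112% of all genes passed.

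**Figure D3:**
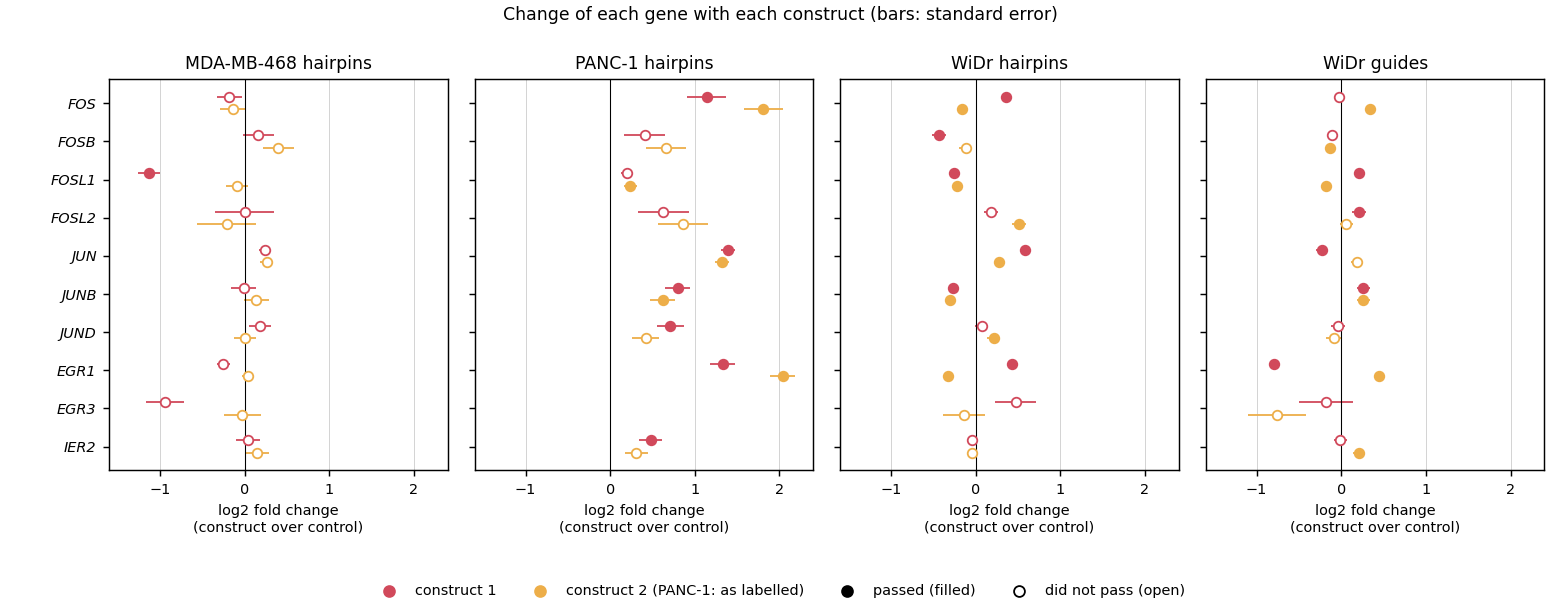
Log2 fold change of each gene over the control of its experiment (± SE) for both constructs in the 4 experiments; filled points passed at an adjusted p under 0.05, open points did not, and EGR3 was not tested in PANC-1. In PANC-1 all 9 tested genes lie above 0 with both constructs, and in WiDr EGR1 lies on both sides of 0 in each experiment.

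In MDA-MB-468, FOSL1 with hairpin 1 was the only member to pass in either comparison with the control. FOSL1 had 8.36, 7.11 and 8.46 CPM with hairpin 1 and 16.4, 14.4 and 18.5 CPM with hairpin 2, against 20.1, 16.3 and 16.2 CPM in controls. The hairpin 1 libraries were all below every other library, while hairpin 2 and control libraries overlapped. The log2 fold change was -1.13 with hairpin 1 (SE 0.133, adjusted p = 0.00406) and -0.09 with hairpin 2 (95% interval -0.35 to 0.16, adjusted p = 0.882). The call with hairpin 1 held in all 9 fits without 1 library, with log2 fold changes between -1.19 and -1.03. Set directly against hairpin 1, hairpin 2 was 1.04 higher (SE 0.133, adjusted p = 0.0137), and 5 of 9 such fits lose that call. It was the 1 member of 10 to pass there, where 0.437% of all genes did.

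FOSL1 was the only one of 10 members that passed with hairpin 1, where 1.04% of all genes were lower and 1.24% higher. None passed with hairpin 2, where 1.69% of all genes were higher and 1.8% lower. There, 1 member had an unadjusted p under 0.05 and 1 passed by DESeq2. JUN had 55.5, 50.0 and 52.2 CPM with hairpin 1 and 55.1, 51.0 and 53.4 CPM with hairpin 2, against 45.7, 45 and 42.5 CPM in controls. Every construct library was above every control library, with log2 fold changes of 0.24 (95% interval 0.10 to 0.39) and 0.26 (0.12 to 0.40), and neither passed (adjusted p = 0.159 and 0.102). EGR1 had 33.1, 32.5 and 32.7 CPM with hairpin 1, 41.7, 40.2 and 38.8 CPM with hairpin 2 and 36.4, 40.8 and 39.8 CPM in controls, and the hairpin 1 libraries, below all others, did not pass either (-0.25, adjusted p = 0.141). EGR3, a relative of EGR1, had 0.739, 0.559 and 0.520 CPM with hairpin 1, 1.28, 1.21 and 0.947 CPM with hairpin 2, and 1.23, 1.01 and 1.28 CPM in controls (-0.94 with hairpin 1, SE 0.229, adjusted p = 0.0815).

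In WiDr cells with hairpins, most members moved by small amounts against replicates that lay close together. JUN had 209, 222 and 217 CPM with hairpin 1 and 176, 178 and 168 CPM with hairpin 2, against 137, 155 and 142 CPM in controls. The 3 groups did not overlap, and both hairpins passed (0.58, SE 0.0532, adjusted p = 3.23e-07, and 0.27, SE 0.0532, adjusted p = 0.000739). JUNB moved the other way, with 110, 104 and 103 CPM and 102, 108 and 99.2 CPM, against 118, 138 and 126 CPM in controls (-0.27, adjusted p = 0.00117, and -0.30, adjusted p = 0.000526). HOOK2 at the JUNB locus was lower too with hairpin 1 (-0.34, adjusted p = 0.000225) and did not pass with hairpin 2 (-0.13, adjusted p = 0.0814). FOSL1 fell with both hairpins as well (-0.26, adjusted p = 0.00251, and -0.22, adjusted p = 0.0091), with 43.6, 42.5 and 39.3 CPM and 42.0, 42.5 and 44.5 CPM, against 49.0, 52.9 and 47.9 CPM in controls.

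EGR1 and FOS moved in opposite directions with the 2 WiDr hairpins. EGR1 had 99.3, 105 and 102 CPM with hairpin 1 and 61.9, 58.5 and 61.6 CPM with hairpin 2, with the controls between them at 80.1, 73.9 and 73.7 CPM. The log2 fold changes were 0.43 (SE 0.0518, adjusted p = 6.07e-06) and -0.33 (SE 0.0525, adjusted p = 0.000123), and hairpin 2 was 0.75 below hairpin 1 (log2 difference -0.75, adjusted p = 2.65e-08). FOS had 64.1, 61.0 and 61.1 CPM with hairpin 1 and 40.1, 44.2 and 45 CPM with hairpin 2, against 48.4, 48.6 and 47.6 CPM in controls, again without overlap. Its log2 fold changes were 0.36 (SE 0.0567, adjusted p = 7.11e-05) and -0.16 (SE 0.0573, adjusted p = 0.0314). The fall with hairpin 2 is lost in 4 of the 9 fits without 1 library and after a correction for transcript GC content and length (-0.06, adjusted p = 0.31). FOSL1 with hairpin 2 is lost after the same correction (-0.07, adjusted p = 0.234).

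FOSB fell with hairpin 1 (12.6, 16.1 and 15.8 CPM, against 19.6, 20.5 and 20.1 CPM in controls; -0.43, adjusted p = 0.000511). It did not pass with hairpin 2 (18.9, 18.3 and 18.3 CPM; -0.12, adjusted p = 0.26), where ERCC1 at the same locus fell (-0.39, adjusted p = 9.69e-05). FOSL2 rose with hairpin 2 (59.3, 56.0 and 57 CPM, against 38.7, 41.1 and 40.9 CPM; 0.51, adjusted p = 0.000226), as did JUND by a smaller amount (0.21, adjusted p = 0.0387), a call lost in 4 of 9 fits without 1 library. With hairpin 1 FOSL2 was at 37.9, 46.6 and 52.0 CPM (0.18, adjusted p = 0.0984), and without its lowest library, replicate 1, the log2 fold change was 0.30 (adjusted p = 0.000126). Of 10 members, 3 were higher and 3 lower with hairpin 1, and 3 higher and 4 lower with hairpin 2. Among all genes 24.1% were higher and 23.9% lower with hairpin 1, and 22.2% and 22.5% with hairpin 2. FOS and EGR1, 2 of 10, passed in opposite directions with the 2 hairpins, as did 2.28% of all genes. Set against each other, the hairpins differed in 5 of 10 members (FOS, FOSB, FOSL2, JUN and EGR1) and in 42.4% of all genes. Ribosomal RNA genes took 1.27% to 2.56% of counts with hairpin 1, 5.38% to 10.2% with hairpin 2 and 1.59% to 2.71% in controls, and leaving them out kept these calls. The 6 colorectal markers summed to 1290 to 1340, 1350 to 1360 and 1170 to 1230 CPM in the same order, and their part in these results was not tested.

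All guide results below rest on the titles: grouped by the genotype field no member passed, and of the values that passed by the titles EGR1 (0.06 with guide 1 and -0.78 with guide 2), FOSL1 (-0.01 and 0.21), JUN with guide 1 (0.02) and FOS with guide 2 (-0.04) had the other sign. By the titles, EGR1 stood on both sides of its control in WiDr cells with guides as well, now with guide 2 higher. It had 103, 104 and 105 CPM with guide 1 and 246, 241 and 250 CPM with guide 2, against 177, 184 and 181 CPM in controls. The replicates were so close (biological coefficient of variation 4.2%, lower than in all but 0.491% of genes) that the groups stand far apart, with log2 fold changes of -0.80 (SE 0.0442, adjusted p = 7.14e-10) and 0.44 (SE 0.0435, adjusted p = 1.63e-06). Guide 2 was 1.24 above guide 1 on the log2 scale (SE 0.0443, adjusted p = 3.58e-12). FOS had 213, 204 and 206 CPM with guide 1 and 257, 270 and 281 CPM with guide 2, against 208, 209 and 220 CPM in controls. Guide 2 libraries were all above the others (0.34, SE 0.0481, adjusted p = 7.57e-05), and guide 1 overlapped the controls (-0.03, adjusted p = 0.621).

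JUN followed the order of EGR1 less sharply. It had 255, 264 and 275 CPM with guide 1 and 347, 315 and 397 CPM with guide 2, against 310, 306 and 317 CPM in controls. Guide 1 was lower (-0.23, SE 0.0662, adjusted p = 0.00976), guide 2 overlapped the controls (0.18, adjusted p = 0.0524), and guide 2 was 0.42 above guide 1 (SE 0.0661, adjusted p = 0.000132). FOSL1 took the other order, with 42.5, 43.6 and 43.1 CPM and 32.6, 31.7 and 34.2 CPM, against 34.4, 38.1 and 39.6 CPM in controls (0.21, adjusted p = 0.0124, and -0.18, adjusted p = 0.0396), and 2 and 5 of 9 fits without 1 library lose these calls. JUNB was higher with both guides, with 89.7, 87.2 and 94.1 CPM and 86.4, 81.1 and 103 CPM, against 72.3, 74.3 and 80.3 CPM in controls (0.26 each, adjusted p = 0.0125 and 0.0219). The calls are lost in 2 and 3 of 9 fits without 1 library, and without guide 2 replicate 3, the highest library, the second value was 0.13 (adjusted p = 0.0788). HOOK2 at that locus was at -0.00 and 0.04.

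FOSB, at 187, 180 and 180 CPM with guide 1 and 185, 172 and 180 CPM with guide 2 against 200, 192 and 197 CPM in controls, had log2 fold changes of -0.11 (adjusted p = 0.0712) and -0.13 (adjusted p = 0.0417). The guide 2 call is lost in 5 of 9 fits without 1 library, and guide 1 passed with the GC and length correction (adjusted p = 0.0394) and with the replicate block (adjusted p = 0.0364). FOSL2 passed with guide 1 (0.21, adjusted p = 0.0398) and IER2 with guide 2 (0.21, adjusted p = 0.0497), and 6 of 9 fits without 1 library lose each of these. IER2 with guide 2 was at 0.10 (adjusted p = 0.23) without its replicate 3. JUND (-0.04 and -0.09) and EGR3 (-0.18 and -0.76) did not pass with either guide. Of 10 members, 3 were higher and 2 lower with guide 1, and 4 higher and 2 lower with guide 2, while 21.4% and 20.3% of all genes were higher and lower with guide 1, and 14.1% and 11.3% with guide 2. EGR1 and FOSL1, 2 of 10, passed in opposite directions, as did 1.65% of all genes, and the guides differed from each other in 5 of 10 members and 34.4% of all genes. The 6 colorectal markers summed to 1060 to 1170 CPM with guide 1, 837 to 910 CPM with guide 2 and 632 to 649 CPM in controls, and their part in these results was not tested.

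The mean change of both constructs differed between experiments for several members. PANC-1 and MDA-MB-468 hairpins differed in FOS (mean change 1.47 in PANC-1 and -0.16 in MDA-MB-468, difference 1.63, SE 0.228, adjusted p = 8.57e-05), EGR1 (1.68 and -0.10, difference 1.79, SE 0.132, adjusted p = 1.33e-07), JUN (1.35 and 0.25, difference 1.10, SE 0.0919, adjusted p = 4.87e-07), FOSL1 and JUNB. That is 5 of 10 members, and 23.9% of all genes passed the same test. WiDr and PANC-1 hairpins differed in 8 of 10 members and 37.2% of all genes, WiDr and MDA-MB-468 hairpins in FOSB and FOSL1, 2 of 10, and 18.2% of all genes, and WiDr guides and hairpins in FOSL1, JUN, JUNB and EGR1, 4 of 10, and 41.6% of all genes. In WiDr the mean of 2 constructs that moved EGR1 apart is close to neither of them, so the tests between constructs above describe that gene better. The same holds for FOSL1 with MDA-MB-468 hairpins 1 and 2 (-1.13 and -0.09) and FOS with WiDr hairpins (0.36 and -0.16). It also holds for FOSL1 (0.21 and -0.18) and JUN (-0.23 and 0.18) with WiDr guides 1 and 2.

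Replicates of FOSL2, the longest transcript of the set, were far apart in MDA-MB-468 and PANC-1. FOSL2 had 45.2, 35.2 and 30.8 CPM with hairpin 1, 30.5, 45.7 and 19.9 CPM with hairpin 2 and 22.2, 51.4 and 37.2 CPM in controls of MDA-MB-468. It had 18.7, 33.8 and 30.7 CPM with hairpin 1, 33.1, 31.7 and 33.1 CPM in the libraries labelled hairpin 2 and 27, 11.9 and 14.7 CPM in controls of PANC-1. The highest control library was 2.31 and 2.26 times the lowest, and the biological coefficient of variation was 29.8% and 25.6%, higher than in 93.4% and 91.2% of genes. The levels moved with the balance of long against short transcripts in a library, the median log2 deviation of long transcripts minus that of short ones. In PANC-1 the balance was -0.48, 0.14 and 0.20 in hairpin 1 libraries, 0.19, 0.15 and 0.31 for the libraries labelled hairpin 2 and 0.45, -0.52 and -0.48 in controls. FOSL2 was lowest in the hairpin 1 library of the lowest balance and highest in the control library of the highest. In MDA-MB-468 the balance was 0.18, 0.13 and -0.06 with hairpin 1, -0.10, 0.44 and -0.46 with hairpin 2 and -0.59, 0.39 and 0.03 in controls, the order of FOSL2 in each group. Without PANC-1 control replicate 1, the control of the highest balance, FOSL2 passed in both comparisons, at 1.05 (adjusted p = 0.00296) and 1.29 (adjusted p = 0.000781). The controls left had balances of -0.52 and -0.48. With WiDr hairpin 1 the balance was -0.37, -0.08 and 0.04, and with hairpin 2 it was 0.22, 0.14 and 0.20. It was 0.02, -0.16 and -0.07 in their controls. FOSL2 had this order within both WiDr hairpin groups but not in the controls. Corrected for GC content and length, FOSL2 with WiDr hairpin 2 was at 0.47 (adjusted p = 9.85e-06).

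The GC-rich members JUNB (64.9% GC), JUND (69.7%) and IER2 (61.7%) moved together within groups. JUNB and JUND had the same highest library in 11 of 12 groups, JUND and IER2 in 11, and JUNB and IER2 in 10. The balance of GC-rich against GC-poor transcripts in PANC-1 was 0.32, 0.21 and 0.03 in hairpin 1 libraries, 0.12, 0.05 and -0.23 for the libraries labelled hairpin 2 and -0.28, -0.16 and -0.06 in controls, the order of JUND in each of these groups. With a correction for GC content and length, JUND in PANC-1 was at 0.40 (adjusted p = 0.00063) and 0.42 (adjusted p = 0.000437) and IER2 at 0.29 (adjusted p = 0.0165) and 0.24 (adjusted p = 0.0331). JUN was at 1.31 and 1.29 and EGR1 at 1.29 and 2.06 under the same correction, close to the uncorrected values, and the libraries labelled hairpin 2 then passed against hairpin 1 in EGR1 (0.76, adjusted p = 0.0181). FOSL2 passed in the PANC-1 libraries labelled hairpin 2 (0.76, adjusted p = 0.019) and did not pass with hairpin 1 (0.56, adjusted p = 0.0634). In MDA-MB-468 the corrected JUN passed with both hairpins (0.29, adjusted p = 0.00716, and 0.28, adjusted p = 0.00583), EGR3 with hairpin 1 (-0.94, adjusted p = 0.0361) and JUNB with hairpin 2 (0.21, adjusted p = 0.0298). In WiDr the correction added FOSL2 (0.27) and JUND (0.17) with hairpin 1. It also added FOSB with guide 1 (-0.09), and JUN (0.18) and JUND (-0.13) with guide 2. The GC balance of WiDr guide 2 libraries was -0.08, -0.17 and 0.20, the order of JUN, JUNB, JUND and IER2 there. Under the correction JUNB (0.19, adjusted p = 0.000484) and IER2 (0.20, adjusted p = 0.00173) still passed with guide 2.

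**Figure D4:**
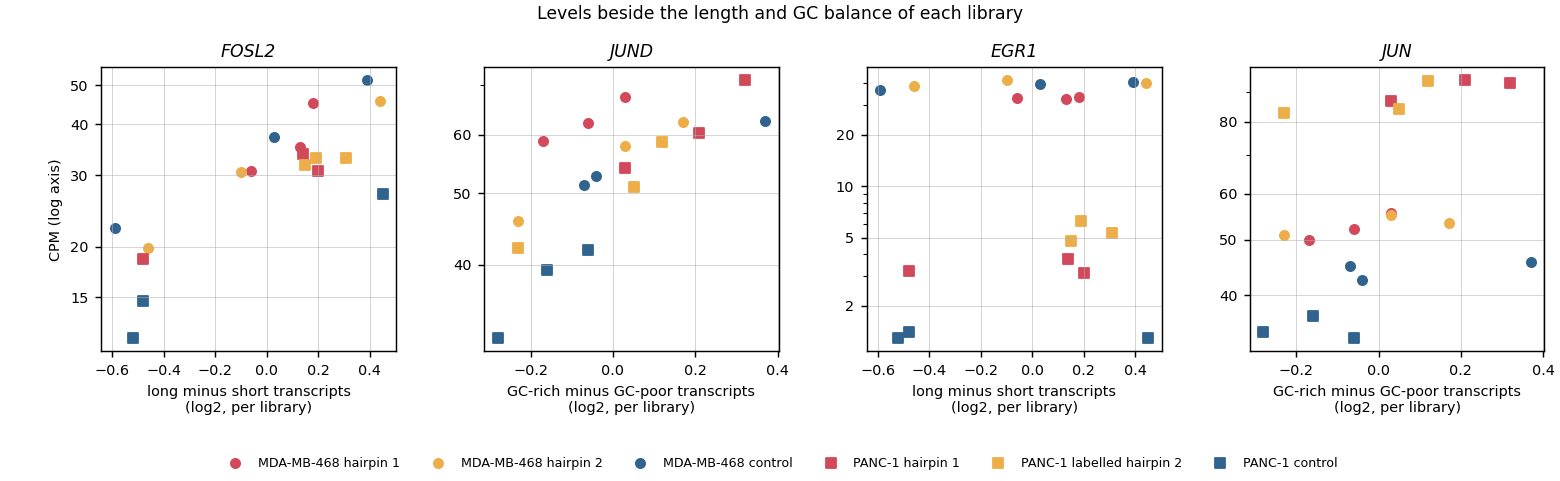
Level of FOSL2, JUND, EGR1 and JUN (CPM within the experiment) in each of the 18 MDA-MB-468 and PANC-1 libraries against that library's balance of long minus short transcripts (FOSL2, EGR1) or of GC-rich minus GC-poor transcripts (JUND, JUN), both log2; circles are MDA-MB-468, squares PANC-1, red hairpin 1, orange hairpin 2, blue control. FOSL2 and JUND climb with the balance, whereas JUN and EGR1 in PANC-1 separate by group, the highest control JUN library at 36.8 CPM.

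Related genes were counted from lists of AP-1 partners, AP-1 targets, MAP kinase feedback genes, other immediate early genes, upstream kinases and SRF factors, repressors of EGR and JUN proteins, and heat shock genes. In PANC-1, 7 of 14 AP-1 targets were higher and 2 lower in both comparisons, where 12.4% of all genes were higher in both and 11.5% lower. The median log2 fold changes were 0.67 and 0.43. PLAUR, the urokinase receptor, had means of 5.77 and 5.93 CPM, against 1.53 CPM in controls (1.91 and 1.95), and the integrin ITGA2 also rose (0.88 and 1.52). The clotting initiator F3 (-1.86 and -2.06) and the collagenase MMP1 (-1.18 and -1.93) fell.

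Of the MAP kinase feedback genes, 5 of 11 were higher in both PANC-1 comparisons, with medians of 0.22 and 0.42. SPRED3, a RAS pathway inhibitor, had 8.37 and 10.3 CPM, against 3.57 CPM in controls, and SPRY4 had 39.9 and 50.8 CPM, against 24.0 CPM. NAB2, the corepressor that EGR1 induces, had 23 and 26.2 CPM, against 14.3 CPM in controls (0.69 and 0.88). It was the 1 of 5 listed repressors of EGR and JUN proteins that was higher in both. In that list 2 genes were lower with hairpin 1, where 14.5% of all genes were lower. The list medians were -0.24 and -0.09, against -0.03 and -0.02 over all genes. Among AP-1 partners 5 of 14 rose and 2 fell, with the small zipper proteins BATF3 (1.87 and 1.61) and MAFF (1.17 and 1.27) up and MAFK down (-0.60 and -0.63). Other immediate early genes were divided, 6 of 20 higher and 4 lower: the mRNA decay factor ZFP36 had 352 and 359 CPM, against 185 CPM in controls, whereas the phosphatase DUSP2 had 1.30 and 1.59 CPM, against 9.62 CPM, and CYR61 had 261 and 202 CPM, against 435 CPM. SRF itself, which binds CArG boxes, was lower (62.9 and 61.3 CPM, against 86.3 CPM in controls), and 2 of 21 upstream genes were higher and 1 lower. Of 11 heat shock genes 4 fell in both, HSPA8 among them (-0.56 and -0.60).

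In the other experiments fewer of these genes passed with both constructs. The genes of MDA-MB-468 were SGK1, a serum-induced kinase (20.3 and 26 CPM, against 9.06 CPM in controls, 1.16 and 1.52), and F3 (-0.68 and -0.32). There, 0.744% of all genes were higher with both hairpins and 0.567% lower. In WiDr with hairpins, 4 of 22 other immediate early genes were higher and 8 lower, where 12.3% of all genes were higher in both and 12.9% lower. KLF6 (0.63 and 0.48) and DUSP1, the MAP kinase phosphatase (0.44 and 0.62), rose, and CYR61 (-0.67 and -0.68) and IER5 (-0.43 and -0.72) fell. ATF3, a stress-induced partner of JUN, was higher there (83.8 and 77.7 CPM, against 51.1 CPM in controls) and its relative JDP2 lower (-0.49 and -0.57). Of 11 heat shock genes 6 fell and 1 rose, with HSPA8 at 985 and 908 CPM, against 1720 CPM in controls. Of 12 MAP kinase feedback genes 3 rose and 4 fell with hairpin 1, and 1 rose and 1 fell with hairpin 2. Among all genes 24.1% were higher and 23.9% lower with hairpin 1, and 22.2% and 22.5% with hairpin 2. None of the 12 passed with both hairpins. Of 13 AP-1 targets, 2 were higher and 2 lower with hairpin 1, and 2 higher and 8 lower with hairpin 2. The list medians were 0.05 and -0.24, against 0.00 and -0.01 over all genes. With both hairpins 0 of the 13 were higher and 1 was lower. Another 2 passed in opposite directions, as did 2.28% of all genes.

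In WiDr with guides, 6 of 22 other immediate early genes were higher with both guides, where 8.48% of all genes were higher with both. KLF4, an epithelial differentiation factor, had 77.6 and 41.0 CPM, against 31.0 CPM in controls (1.33 and 0.41). Among AP-1 targets 4 of 13 rose with both guides and 4 passed in opposite directions, and HBEGF, a ligand of the EGF receptor, rose (0.72 and 0.59). ATF3 rose with the guides too (90.2 and 68.2 CPM, against 52.4 CPM in controls). Of 13 AP-1 partners 5 rose, MAFK (0.68 and 0.24) among them, and BATF2 fell (-0.67 and -0.65), where 6.26% of all genes were lower with both.

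Across the 12 group means, FOS was most like MYO19, STRN4 and MMRN2 among 11547 genes (Pearson r of log2(CPM + 1) 0.985, 0.984 and 0.981), and its likeness to other members was 0.970 for FOSB, 0.966 for JUND, 0.917 for JUN and 0.904 for EGR1. EGR1 was most like GSAP, RNF125 and NIPSNAP1 (0.982, 0.982 and 0.981), and FOSL1 most like VWA1, ST3GAL2 and CCNJL (0.986, 0.986 and 0.983). FOSL1 ran against IER2 (-0.902) and showed little relation to FOS (-0.295). JUNB was most like EIF4EBP1, TNFAIP8 and JDP2 (0.979, 0.971 and 0.965). The 12 groups come from 3 lines, so these values mostly rank genes by line and carry no test.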

How the data were processed

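Poly-A selected RNA of 36 libraries was measured in 12 groups of 3. The deposited table holds the authors' expected counts per gene, for which the submitters' processing notes name RSEM 1.2.15, Bowtie2 2.1.0 and hg38. Neither its gene annotation nor its strand setting, which decide how reads of overlapping genes are shared out, is given in those notes. Expected counts were rounded to whole numbers, and all per-sample columns were assigned to libraries by title. Of 26475 symbols, 2385 had no count.

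Each experiment was fitted with edgeR 4.0.16 (R 4.3.3; filterByExpr by group, TMM, robust quasi-likelihood F test) on its 9 libraries, testing 14641 genes in MDA-MB-468, 15112 in PANC-1, and 14317 and 14650 in the WiDr hairpin and guide experiments. Benjamini-Hochberg adjustment ran over all of them, with 0.05 as the threshold. The SE is the log2 fold change divided by the square root of F. The 95% intervals are normal approximations from this SE. They take no account of the few degrees of freedom and can be too narrow. FOSL2 with PANC-1 hairpin 1 had an interval of 0.04 to 1.21 but an unadjusted p of 0.0636 by the F test. Differences between experiments were tested in fits of 2 experiments and control groups in 1 fit of all 36 libraries (17171 genes). CPM are TMM-scaled, within an experiment for comparisons and over 36 libraries for levels across lines. The fit was checked on simulated data. Alternatives were DESeq2 1.42.0, other scalings, no low-count filter, other sample sets, a replicate block, the genotype field of the guides and leaving out each library. Leaving out ribosomal RNA genes and correcting for transcript GC content and length were added after seeing the data. The balances of long minus short and GC-rich minus GC-poor transcripts use GENCODE 29 lengths and GC.

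Members and lists were chosen with earlier results of these data known. All 10 members are reported. List genes are named where they passed with both constructs in 1 direction, at most the 3 largest rises and falls per list and experiment with a mean of at least 1 CPM. Like genes are the 3 of highest correlation, for 4 members. Depth limits EGR3 and, in PANC-1, FOS. The gene that the hairpins and guides address, and some marker and list genes, are not reported here.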

Additional observations from a re-analysis of the deposited data

Results flagged for a closer look

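The mean change of both constructs over their control differed between experiments by an interaction test (edgeR quasi-likelihood test with Benjamini-Hochberg adjustment) for 19 pairs of member and contrast, given as log2 differences. PANC-1 minus MDA-MB-468 hairpins gave 1.63 for FOS, 0.83 for FOSL1, 1.10 for JUN, 0.64 for JUNB and 1.79 for EGR1, with adjusted p between 1.33e-07 and 0.0211. The mean change of FOSL1 was 0.22 in PANC-1 and -0.61 in MDA-MB-468. In MDA-MB-468 it is the mean of -1.13 with hairpin 1 and -0.09 with hairpin 2, and is close to neither.

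WiDr minus PANC-1 hairpins gave -1.43 for FOS, -0.86 for FOSB, -0.52 for FOSL1, -0.99 for JUN, -1.07 for JUNB, -0.50 for JUND, -1.70 for EGR1 and -0.50 for IER2, and 37.2% of all genes passed that test. WiDr minus MDA-MB-468 hairpins gave -0.53 for FOSB (adjusted p = 0.0361) and 0.39 for FOSL1 (adjusted p = 0.0296), and 18.2% of all genes passed. These contrasts share construct and control libraries. With WiDr hairpins 1 and 2, FOS (0.36 and -0.16) and EGR1 (0.43 and -0.33) moved in opposite directions, and the contrasts use their mean.

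Within WiDr, guides minus hairpins gave 0.25 for FOSL1, -0.45 for JUN, 0.54 for JUNB and -0.23 for EGR1 (adjusted p between 2.7e-05 and 0.00954), and 41.6% of all genes passed. JUNB was higher than its control with both guides and lower with both hairpins. For EGR1 each mean is over 2 constructs that moved in opposite directions. The guide means of FOSL1 (0.21 and -0.18 with guides 1 and 2) and JUN (-0.23 and 0.18) also join values of opposite sign. JUN with guide 2 did not pass.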

How the results depend on the processing

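Library totals were the scaling that moved the members most, with a median shift of 0.12 and 0.15 on the log2 scale in PANC-1 and no change of direction for a member that passed. Of 157 member results, 156 kept their side of the threshold without ribosomal RNA genes, and 985 did when 1 library was left out (summed over all such fits), 54 losing and 14 gaining a call. With constructs 1 and 2, genes passing in the reported fits numbered 333 and 511 (MDA-MB-468), 4593 and 5090 (PANC-1), 6869 and 6403 (WiDr hairpins) and 6100 and 3731 (WiDr guides), and list genes passing with both constructs in 1 direction, here over the AP-1 partner, AP-1 target, MAP kinase feedback and other immediate early lists together, 2, 31, 16 and 17.

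In MDA-MB-468, DESeq2 gave 3 and 1 members and 726 and 1026 genes, the GC and length correction 3 and 2 members, 1124 and 1772 genes and 6 list genes, and the fit of all 36 libraries 3 and 1 members, 900 and 1268 genes and 7 list genes. With the 2 groups compared alone MDA-MB-468 had 178 and 127 genes and 1 list gene, and with no low-count filter 1. In PANC-1, the libraries labelled hairpin 2 had 8 members with the correction, upper-quartile scaling or library totals and 9 in the 36-library fit, and hairpin 1 alone with its control had 2965 genes. In WiDr the 36-library fit gave 2 members and 3966 genes with hairpin 2, 2 members and 3619 genes with guide 1, 2 members and 1261 genes with guide 2 and 6 list genes for guides. Library totals gave 3 members with guide 1 and 11 list genes for guides. The causes were not tested.

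Grouped by the genotype field, the guides gave 0 and 0 members, 1353 and 127 genes and 0 list genes. Directions turned for FOSL1 (-0.01), JUN (0.02) and EGR1 (0.06) with guide 1, FOS (-0.04), FOSL1 (0.21) and EGR1 (-0.78) with guide 2, and FOS (-0.25), FOSL1 (0.22), JUN (-0.20), EGR1 (-0.85) and IER2 (-0.01) between guides.

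Without 1 library, genes passing ran from 85 to 331 and 167 to 567 (MDA-MB-468), 2855 to 6797 and 3116 to 7961 (PANC-1), 5784 to 7256 and 5089 to 7682 (WiDr hairpins) and 4844 to 6916 and 2437 to 4139 (guides). Members ran 1 to 1 and 0 to 0, 5 to 7 and 3 to 7, 6 to 7 and 5 to 7, and 2 to 5 and 2 to 6, and list genes 1 to 2, 26 to 33, 15 to 19 and 9 to 17, in the same order.

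The main fits did not pair libraries by replicate number. The correlation of deviations between same-numbered libraries ran between -0.931 and 0.906. Between libraries of different number it ran from -0.898 to 0.87 in MDA-MB-468 and -0.717 to 0.847 in PANC-1. In the WiDr guide experiment it was -0.329 to 0.505 for the same number and -0.404 to 0.237 for different numbers. These ranges overlap and do not settle whether the numbers pair the libraries. With the replicate block PANC-1 had 2926 and 3224 genes and MDA-MB-468 1 list gene. FOS with WiDr hairpin 2 (adjusted p = 0.0593), FOSL1 in the PANC-1 libraries labelled hairpin 2 (0.0983) and IER2 with PANC-1 hairpin 1 (0.0616) no longer passed. JUN with WiDr guide 2 (adjusted p = 0.0128), FOSB with guide 1 (0.0364) and FOSL2 between the guides (0.0363) passed with the block. So did the differences between experiments for JUND (WiDr guides minus hairpins, 0.034) and JUNB (WiDr minus MDA-MB-468 hairpins, 0.0324).

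Counts limit EGR3 in every line and FOS in PANC-1. The PANC-1 and WiDr hairpin groups differ in ribosomal RNA share, and MDA-MB-468 and PANC-1 replicates in length and GC balance, with which FOSL2 and JUND moved.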
